A study of Mus musculus with 9 samples.

Results

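Gene expression was compared between ventricles of mice that carried a dominant negative PI3K transgene on top of an IGF1 receptor transgene (IGF1R-dnPI3K, 3 arrays) and ventricles of mice that carried the receptor transgene without any PI3K transgene (IGF1R, 3 arrays). These 6 arrays were chosen by their titles from the 9 of the study, and all 12422 probe sets of the array that are not controls were described, of which 7625 were bright enough to be tested. Each array held RNA from both ventricles of 1 female mouse aged 3 months. Every mouse analysed overexpressed the receptor, so no group stands for a heart without a transgene, and the labels also name hearts with a PI3K transgene alone and non-transgenic littermates, which were not analysed here. The remaining 3 arrays came from mice with the receptor transgene and a constitutively active PI3K (IGF1R-caPI3K) and served for side values. The labels give p110 as the PI3K protein concerned. The labels do not state the promoter that drives each transgene, the number of transgenic lines or the strain, and nothing but the mouse number in each title says that the samples are separate animals.

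IGF1R is the receptor tyrosine kinase for insulin-like growth factor 1. When bound by its ligand it recruits the lipid kinase PI3K, whose p110 subunit makes the membrane lipid that brings Akt to the plasma membrane, and Akt in turn promotes growth through mTOR and S6 kinase and keeps the FoxO transcription factors out of the nucleus. In heart muscle this route is known for setting cell size during normal growth, and a dominant negative p110 blocks it.

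The median signal per array ran from 161 to 197 in the deposited units, and precision is limited by having 3 arrays a group. Between the 2 groups the arrays differed in control probe sets as well as in genes. The 3' to 5' signal ratio of CreX, a hybridisation control that is added during processing, lay between 1.05 and 1.26 in the IGF1R group but between 1.79 and 1.83 in the IGF1R-dnPI3K group, so group and processing cannot be told apart. IGF1R-dnPI3K replicate 3 was least like the others: across probe sets its Pearson correlation with them averaged 0.924, where the remaining arrays had 0.947 to 0.950. IGF1R-dnPI3K mice varied more among themselves than IGF1R mice, with a median SD of log2 signal of 0.255 against 0.161. The atrial markers Myl7, Sln and Bmp10 stayed at or below 122 on all 6 arrays, while Y-linked probe sets, which mark background in these female mice, reached 59.4. Nppa and Kcna5, of the same list of atrial and conduction markers, were brighter. Their means were 3077 and 812 in IGF1R hearts and 5430 and 1307 in IGF1R-dnPI3K hearts. Of the list's 9 probe sets tested, 2 were higher and 2 lower at an unadjusted limma p under 0.05. The share of atrial tissue was not tested.

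At a limma adjusted p of 0.05 (Benjamini-Hochberg over all probe sets tested), 137 probe sets differed, which is 1.8% of those tested: 73 (0.957%) were higher and 64 (0.839%) lower in IGF1R-dnPI3K hearts. These 137 included 121 with 1 gene symbol, for 120 genes, and are referred to as called below. In all, 2138 probe sets had an unadjusted p under 0.05. The 3 arrays of each group did not overlap for 13.8% of probe sets in the higher direction and 21% in the lower direction. All 137 called probe sets were among these, so the separation described below for called genes adds no support to their calls. The calls lay close to the threshold: 103 of the 137 had an adjusted p of 0.04 or more, and a further 271 probe sets lay between 0.05 and 0.06. The count also rested on single arrays. It was 1 without IGF1R replicate 1, 1 without IGF1R replicate 2, 2 without IGF1R replicate 3 and 1 without IGF1R-dnPI3K replicate 2, while it was 1138 without IGF1R-dnPI3K replicate 1 and 191 without IGF1R-dnPI3K replicate 3.

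**Figure D1:**
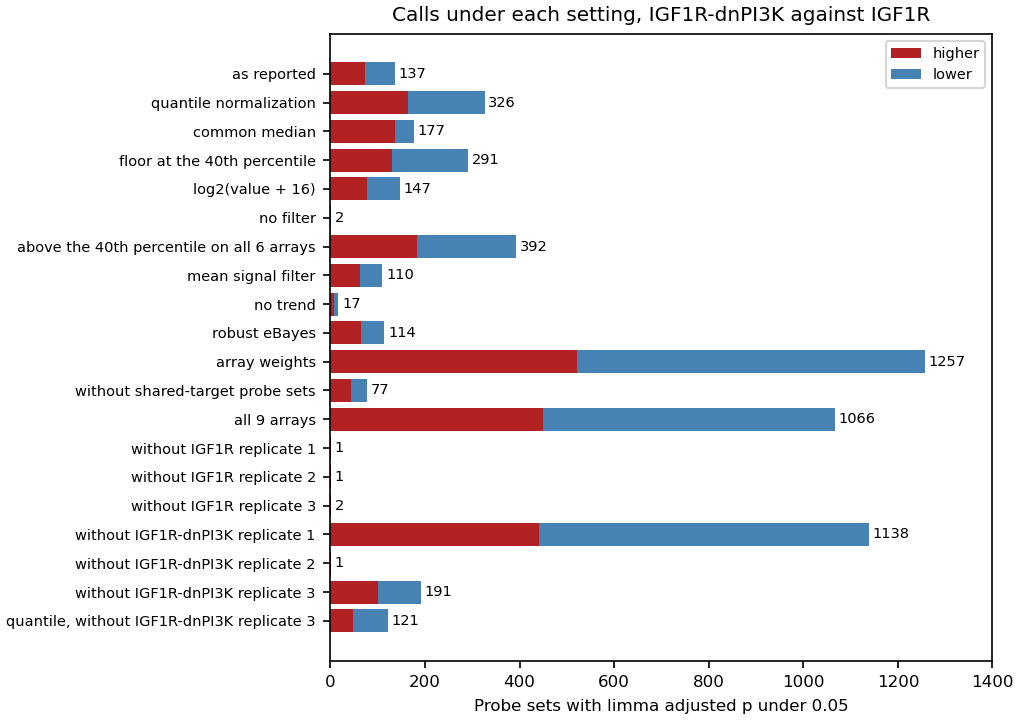
Number of probe sets with a limma adjusted p under 0.05 (horizontal axis), split into higher and lower, for the reported setting and each alternative (rows). The reported count of 137 compares with 1 to 1138 when single arrays are left out and with 1257 when arrays are weighted.

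Bright and dim probe sets moved differently. With probe sets ranked by signal and split into 10 bins of like size, the median log2 change went from -0.24 in the dimmest bin to 0.21 in the brightest, and on each IGF1R-dnPI3K array the brightest bin lay above the dimmest. The median over all probe sets tested was -0.09 as deposited, -0.01 after quantile normalization (which forces the same distribution of signals on every array) and 0.08 with arrays scaled to a common median. Gene lists below are therefore given as deposited and after quantile normalization, beside these medians. A list's count of called members stands beside shares of 0.957% called higher and 0.839% called lower over all probe sets tested.

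**Figure D2:**
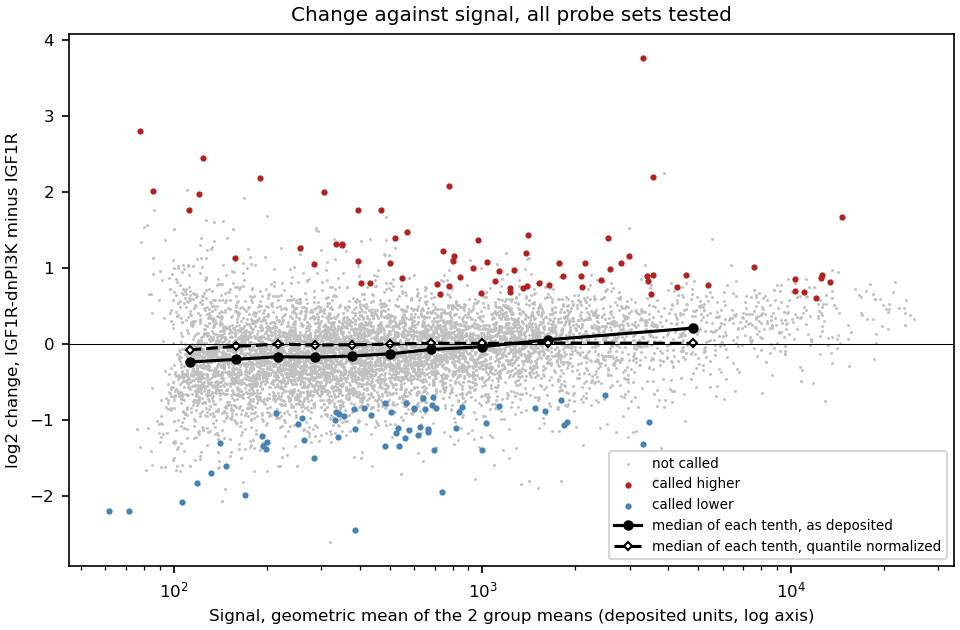
Log2 change of IGF1R-dnPI3K against IGF1R hearts (vertical axis) by signal (horizontal log axis) for the 7625 probe sets tested, with called ones coloured and the median of each of 10 signal bins drawn as a line. The solid line climbs from -0.24 at the dim end to 0.21 at the bright end, and the dashed line, after quantile normalization, stays between -0.08 and 0.01.

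Among genes of the receptor's own pathway, Igf1r itself rose. Its signal was 986, 868 and 854 in IGF1R hearts and 1977, 1660 and 1680 in IGF1R-dnPI3K hearts, a log2 change of 0.97 ± 0.14 (SE, limma adjusted p = 0.0325). The lowest IGF1R-dnPI3K array lay above the highest IGF1R array by more than the spread within either group. The sources used here do not say whether this probe set reads the transgene as well as the mouse gene, so it does not check the labels. Of 22 probe sets tested for receptor and insulin signalling, 1 was called higher (Igf1r) and 0 lower. No overlap between the groups was seen in 5 higher (22.7%, against 13.8% over all probe sets tested) and 1 lower (4.5%, against 21%). The list's median was 0.12 (0.09 after quantile normalization).

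Akt2, the Akt form most tied to glucose uptake, had signals of 1176, 968 and 970 against 1895, 1565 and 2533, a difference of 0.92 ± 0.19 that missed the threshold (adjusted p = 0.0515). Irs2, an adaptor that links the insulin and IGF1 receptors to PI3K, differed by 1.51 ± 0.43 (adjusted p = 0.0775) from signals of 30.9 to 100.2 in IGF1R hearts, near the background. The catalytic subunit gene Pik3ca differed by -0.38 ± 0.30 on one probe set and 0.17 ± 0.19 on another, and the regulatory subunit gene Pik3r1 by 0.22 ± 0.34; the groups overlapped in all of these. Akt1 (0.24 ± 0.20) and Foxo3 (0.48 ± 0.26) also overlapped, and Insr and Irs1 were too dim to be tested.

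Downstream of Akt, Rps6kb2, which encodes an S6 kinase, rose. Its signals were 142, 55.5 and 79.5 in IGF1R hearts and 328, 358 and 497 in IGF1R-dnPI3K hearts, a log2 change of 2.18 ± 0.35 (limma adjusted p = 0.038). All 3 dominant negative arrays lay clearly above the IGF1R arrays, whose lowest signal was within the background. Hearts with the active PI3K also read above the IGF1R arrays, at 240, 275 and 309. Readings above the IGF1R arrays were thus not confined to the dominant negative group, though the active PI3K group was not tested against IGF1R. The 2 PI3K groups differed by 0.51 ± 0.20 (limma adjusted p = 0.359), which does not show that their levels were alike. Rps6kb2 was the 1 called member among 13 probe sets tested for mTOR and S6 kinase growth control. In that list the IGF1R and IGF1R-dnPI3K arrays did not overlap in 3 probe sets higher (23.1%, against 13.8% over all probe sets tested) and 1 lower (7.69%, against 21%). The median was 0.13 (0.15 after quantile normalization). Mtor itself differed by 0.29 ± 0.21 (adjusted p = 0.407) and overlapped.

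FoxO factors and their known targets had 1 called member of 24 probe sets tested, Gadd45b, a stress-induced growth arrest gene. Its called probe set read 54.7, 46.3 and 82.4 in IGF1R hearts and 159, 224 and 233 in IGF1R-dnPI3K hearts, a log2 change of 1.77 ± 0.33 (limma adjusted p = 0.0452). That probe set passed the filter through the IGF1R-dnPI3K arrays only, where it was high, so its lack of overlap was largely fixed in advance. Of the 3 IGF1R signals 2 lay within the background, so the size of the rise is open, and it was 0.87 with the floor at the 40th percentile. Its other probe set moved the same way, by 1.40 ± 0.33, and did not pass (adjusted p = 0.0546). Bcl2l11, a cell death activator, differed by 0.87 ± 0.19 (adjusted p = 0.0546) and the cell cycle inhibitor Cdkn1a by 1.17 ± 0.32 (adjusted p = 0.0725). In the opposite direction, the p53 target Ccng1 differed by -0.83 ± 0.22 (adjusted p = 0.0684). In the whole list the groups did not overlap in 6 probe sets higher (25%, against 13.8% over all probe sets tested) and 4 lower (16.7%, against 21%). The called probe set of Gadd45b is counted among those higher. The median was 0.19 (0.16 after quantile normalization).

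Because FoxO factors bind a known element, the 250 bases before the start of each called gene were searched for GTAAACA on both strands in RefSeq's promoter windows (GRCm38.p6). The element was found in 0 of 49 genes called higher with a window and in 3 of 45 called lower (6.67%), against 3.54% of all 27025 genes with a window. The 3 windows are shown because they are all the called genes that hold it, each 5′ to 3′ on the gene's own strand with the element in capitals. Mdm2 and Vps26b were singled out after their values were seen.
Rasa1, chr13:85289487-85289736, minus strand: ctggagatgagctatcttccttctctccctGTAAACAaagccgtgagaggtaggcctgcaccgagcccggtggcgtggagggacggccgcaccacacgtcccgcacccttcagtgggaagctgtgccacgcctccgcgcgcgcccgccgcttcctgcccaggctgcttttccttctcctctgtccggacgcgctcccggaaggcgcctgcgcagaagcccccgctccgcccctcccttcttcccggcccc
Mdm2, chr10:117710759-117711008, minus strand: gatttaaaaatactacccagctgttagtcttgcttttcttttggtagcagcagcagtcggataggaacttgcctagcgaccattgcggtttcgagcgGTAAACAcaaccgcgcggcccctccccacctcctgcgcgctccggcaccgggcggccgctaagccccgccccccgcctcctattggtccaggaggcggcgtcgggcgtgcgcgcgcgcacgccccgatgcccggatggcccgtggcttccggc
Vps26b, chr9:27030095-27030344, minus strand: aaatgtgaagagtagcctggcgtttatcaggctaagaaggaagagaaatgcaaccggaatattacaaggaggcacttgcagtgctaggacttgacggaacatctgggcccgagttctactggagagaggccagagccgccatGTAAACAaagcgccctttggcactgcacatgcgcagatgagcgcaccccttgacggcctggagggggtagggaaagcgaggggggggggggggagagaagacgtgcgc
Rasa1, a GTPase activating protein that turns Ras off, went from 733, 857 and 927 to 475, 334 and 223, a log2 change of -1.35 ± 0.26 (limma adjusted p = 0.0465). Mdm2, the ubiquitin ligase of p53, changed by -0.83 ± 0.14 (adjusted p = 0.0427) and Vps26b, a subunit of the retromer that sorts endosomal cargo, by -0.999 ± 0.19 (adjusted p = 0.0452). As for all 137 called probe sets, the arrays of the 2 groups did not overlap for these 3 genes. A match describes the letters in a window and shows no binding.

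The largest rise of all probe sets tested was on 1 probe set of Tbc1d10a, a GTPase activating protein of the Rab family. It read 1234, 835 and 663 in IGF1R hearts and 13086, 9621 and 13662 in IGF1R-dnPI3K hearts, a log2 change of 3.77 ± 0.23 (limma adjusted p = 6.67e-04). No array of one group came near those of the other, and the change ran from 3.55 to 4.01 over the 18 alternative settings in which the probe set was tested. The name of the probe set carries the suffix r, which sets it apart from plain probe sets, and what it reads could not be checked. A second probe set of the gene differed by -0.93, from 245 ± 51.5 to 175 ± 130.0 (SD, n = 3 each), without passing (adjusted p = 0.413). The gene's own change is therefore unsettled.

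Several enzyme genes were among the other called rises. Ptgds, the prostaglandin D synthase, read 1888, 1180 and 1626 against 3295, 7875 and 13380.1 on its called probe set, a log2 change of 2.19 ± 0.44 (adjusted p = 0.0492). The IGF1R-dnPI3K mice were all higher but differed among themselves by more than the IGF1R mice did. The other Ptgds probe sets, at 1.52 ± 0.34 and 2.26 ± 0.47, had no overlap either and narrowly missed (adjusted p = 0.0546 and 0.0524). Car14, a membrane-bound carbonic anhydrase, rose from 1768, 1402.5 and 1446 to 2670, 4533 and 5385, by 1.39 ± 0.24 on the log2 scale (adjusted p = 0.0431). Replicate 1 of the IGF1R-dnPI3K group was the lowest of its group for both genes. Ces1d, a carboxylesterase that handles lipids, rose by 1.47 ± 0.23, and its other probe set differed by 0.60 without passing. Scd1, which makes monounsaturated fatty acids, rose by 1.10 ± 0.18 (adjusted p = 0.0427) on 1 probe set, from 264, 274 and 270 to 627, 675 and 451, while a brighter one differed by 0.37 (adjusted p = 0.299).

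Rises of lesser known roles in the heart were those of Tspan4, a tetraspanin (1.77 ± 0.26), Pcp4l1 (1.38 ± 0.20), the G protein subunit Gnb3 (1.32 ± 0.21) and Znrf1, a ubiquitin ligase (1.39 ± 0.25). The other probe sets of Pcp4l1 and Znrf1 differed by 0.50 and 0.06 and were not called. Txnrd3, a thioredoxin reductase, rose from 175, 192 and 280 to 701, 653 and 812, by 1.77 ± 0.21 (limma adjusted p = 0.0186), on a probe set with the suffix r. In 4 further genes the IGF1R signal was at background, so the size of the rise is open: Arhgap9 (25.6 ± 5.77 to 236 ± 76.6, SD, n = 3 each), the uridine phosphorylase Upp1 (53.2 ± 7.51 to 293 ± 52.4), the nuclear pore gene Nup188 (42.7 ± 5.02 to 173 ± 18.8) and the folate carrier Slc19a1 (59.3 ± 8.28 to 246 ± 100.3). A brighter probe set of Upp1, at 590 and 535 in the 2 groups, differed by -0.16 and was not called, and brighter probe sets of Arhgap9 (0.72) and Slc19a1 (0.18) were not called either.

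**Figure D3:**
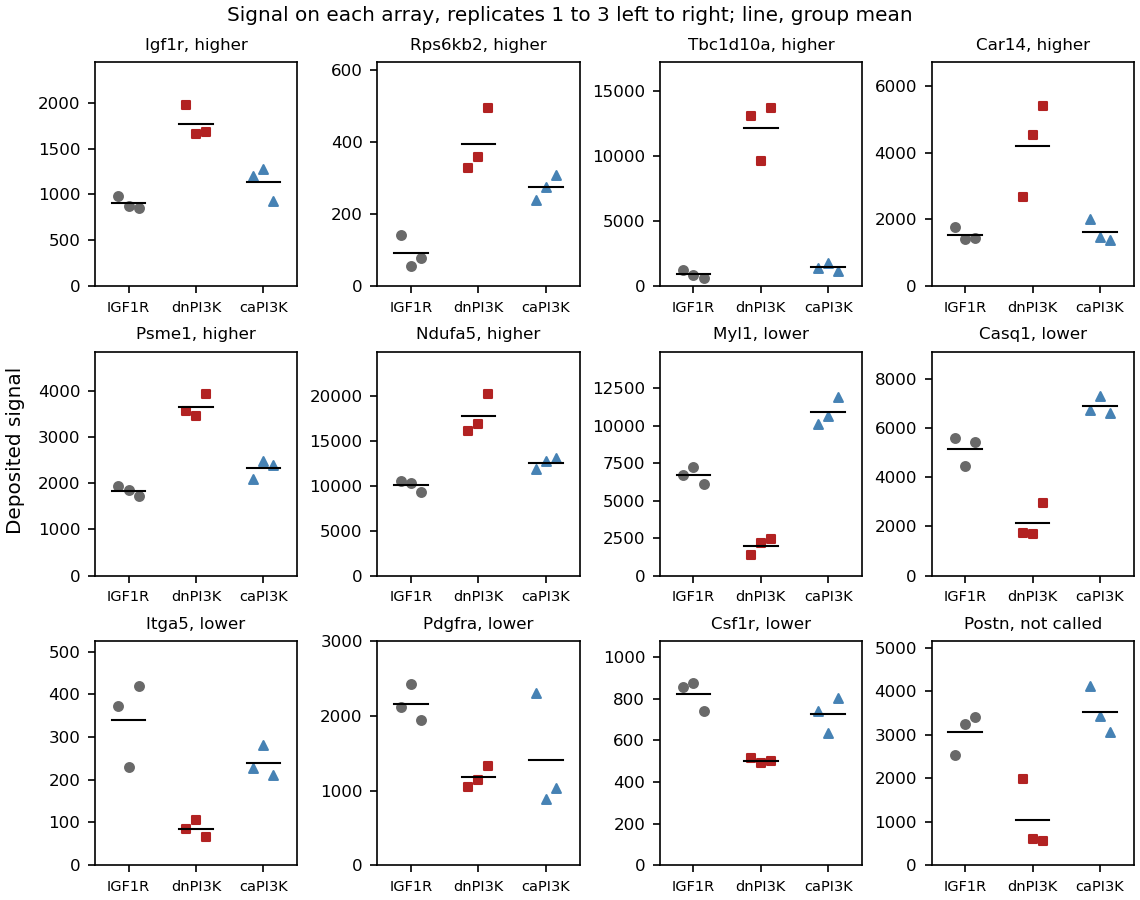
Deposited signal (vertical axes, from 0) on each array of the 3 groups for 12 genes; points are single mice, replicates 1 to 3 from left to right, and lines are group means. In 11 of the 12 panels the gene was called between IGF1R-dnPI3K and IGF1R hearts, and in the panel of Postn, which was not called, IGF1R-dnPI3K replicate 1 lies between the other 2 mice of its group and the IGF1R mice.

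Of 42 matrix and fibroblast probe sets tested, 3 were called lower and 0 higher. Pdgfra, the growth factor receptor that marks fibroblasts, fell from 2121, 2424 and 1944 to 1053, 1139 and 1333, by 0.88 ± 0.15 on the log2 scale (limma adjusted p = 0.0427). The 2 groups were well apart, and the 3 IGF1R-dnPI3K mice agreed closely. In IGF1R-caPI3K hearts Pdgfra read 2303, 885.5 and 1035.5, and IGF1R-dnPI3K hearts differed from these by -0.13 ± 0.32 (limma adjusted p = 0.884). With all 9 arrays sharing 1 estimate of spread, Pdgfra did not pass between IGF1R-dnPI3K and IGF1R hearts (limma adjusted p = 0.0645). Mfap5, a protein of elastic microfibrils, fell from 1587, 1275 and 1918 to 888, 545 and 445, a log2 change of -1.39 ± 0.26 (adjusted p = 0.0452), and the laminin chain Lamb1 changed by -0.95 ± 0.19 (adjusted p = 0.0492). The other tested probe sets of these genes differed by -0.65 (Pdgfra), 0.15 (Mfap5) and -0.27 (Lamb1) and were not called. The groups did not overlap in 15 of the 42 lower (35.7%, against 21% over all probe sets tested) and in 4 higher, and the list's median was -0.28 (-0.25 after quantile normalization). In bulk tissue, fewer cells of a type and less RNA per cell cannot be told apart.

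Collagens and the enzymes that process them had the lowest median of all lists, -0.64 (-0.59 after quantile normalization). By limma, 0 of 33 probe sets were called in either direction, and 19 lower against 1 higher had an unadjusted p under 0.05. Over all probe sets tested, 2138 of 7625 had such a p. No overlap between the groups was seen in 13 lower (39.4%, against 21% over all probe sets tested) and 1 higher (3.03%, against 13.8%). Postn, the matrix protein periostin, read 2529, 3238 and 3417 in IGF1R hearts and 1988, 601 and 552 in IGF1R-dnPI3K hearts, a difference of -1.80 ± 0.43 (adjusted p = 0.0554). One IGF1R-dnPI3K mouse, replicate 1, lay close to the IGF1R mice and the other 2 far below them. Col3a1 showed the same order, with 2257, 2025 and 3384 against 1845, 514 and 314 (-1.90 ± 0.55, adjusted p = 0.0784 on its brightest probe set). Col1a2, a chain of type I collagen, was more even, with 1616, 1403.2 and 1563 against 1119, 812 and 959 (-0.68 ± 0.15, adjusted p = 0.0546). Lum, the proteoglycan lumican, differed by -1.16 ± 0.24 (adjusted p = 0.0524), and Serpinh1, the collagen chaperone, by -1.16 ± 0.28 (adjusted p = 0.0554). Without IGF1R-dnPI3K replicate 1, Postn passed at -2.40 (limma adjusted p = 0.00286) and Lum at -1.41 (adjusted p = 0.00978). The array left out was the least changed in these genes, and 1138 of 7449 probe sets passed in that setting, so these passes add no support.

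Itga5, the integrin chain that binds fibronectin, fell from 373, 230 and 419 to 85.3, 105 and 65.1, a log2 change of -1.98 ± 0.30 (limma adjusted p = 0.0358). Its highest IGF1R-dnPI3K value, 105, was under the lowest IGF1R value, 230. It was the 1 called member of 35 probe sets for integrins and the dystrophin complex (0 higher, 1 lower), a list whose median was -0.18 (-0.11 after quantile normalization). In that list the groups did not overlap in 12 lower (34.3%, against 21% over all probe sets tested) and 3 higher (8.57%, against 13.8%).

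Of 22 macrophage and myeloid probe sets tested, 1 was called lower and 0 higher. Csf1r, the receptor that macrophages need to survive, fell from 855, 877 and 739 to 514, 489 and 500, by 0.71 ± 0.14 on the log2 scale (limma adjusted p = 0.0458). The IGF1R-dnPI3K mice were nearly identical to each other in this gene and all below the IGF1R mice. Its other tested probe set, dimmer at 205 and 168 in the 2 groups, differed by -0.29 (adjusted p = 0.421) and was not called. In the list, 8 lower (36.4%, against 21% over all probe sets tested) and 0 higher had no overlap between the groups, and the median was -0.42 (-0.29 after quantile normalization). Lyz2, lysozyme of myeloid cells, differed by -0.99 ± 0.22 (adjusted p = 0.0546) and the mannose receptor gene Mrc1 by -0.91 ± 0.27 (adjusted p = 0.0825).

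Chaperones of the endoplasmic reticulum, where collagen and other secreted proteins fold, had a median of -0.51 (-0.39 after quantile normalization) over 32 probe sets. Relative to the IGF1R mean, the list's median was -0.25, -0.65 and -0.58 on the IGF1R-dnPI3K arrays. On the IGF1R-caPI3K arrays it was -0.20, -0.36 and -0.22. By limma, 0 were called between IGF1R-dnPI3K and IGF1R hearts, and 15 lower against 2 higher had an unadjusted p under 0.05. Over all probe sets tested, 2138 of 7625 had such a p. Atf6, a sensor of misfolded protein, read 942, 794 and 910 against 607, 503 and 584 (-0.64 ± 0.14, adjusted p = 0.0546). Pdia3, a disulfide isomerase, differed by -1.49 ± 0.38 (adjusted p = 0.0629) and the cochaperone Dnajb9 by -1.84 ± 0.49 (adjusted p = 0.0691). Heat shock proteins of the cytosol and mitochondria had a median of -0.28 (-0.38 after quantile normalization) over 36 probe sets, again with 0 called and with 12 lower against 2 higher at an unadjusted p under 0.05. Hspa8, the constitutive heat shock protein of the cytosol, read 7426, 7214 and 6969 against 4790, 5185 and 3663 (-0.68 ± 0.15, adjusted p = 0.0546).

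Muscle genes of the skeletal type split. Myl1, a light chain of fast skeletal myosin, fell from 6705, 7207 and 6118 to 1346, 2189 and 2419, by 1.79 ± 0.21 on the log2 scale (limma adjusted p = 0.0186). Casq1, the calcium-binding protein of the skeletal sarcoplasmic reticulum, fell from 5592, 4473 and 5422 to 1751, 1711 and 2954, by 1.31 ± 0.22 (adjusted p = 0.0427). Both genes left a wide gap between the groups. They were the 2 called members (0 higher, 2 lower) of 17 probe sets tested, and the list's median was 0.04 (0.11 after quantile normalization). The groups did not overlap in 3 higher (17.65%, against 13.8% over all probe sets tested) and 6 lower (35.3%, against 21%). The list's other genes of fast skeletal fibres were not called. Examples are Mylpf, which went from 187 to 185 in mean signal, and Pvalb, from 1153 to 1320. Myh1, Myh2 and Tnni2 stayed at background with means of 8.23 to 17.6. In the list 4 probe sets were higher and 5 lower at an unadjusted limma p under 0.05. Tnnt1, slow troponin T, differed by -0.75 ± 0.16 on one probe set (adjusted p = 0.0546) and by 0.65 ± 0.24 on another.

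Of 20 probe sets for fetal gene expression and cardiac stress, 1 was called lower and 0 higher, with 7 lower (35%, against 21% over all probe sets tested) and 2 higher whose groups did not overlap. The median was -0.15, or -0.39 after quantile normalization, and was below 0 on each of the 3 IGF1R-dnPI3K arrays (-0.21, -0.14 and -0.11). Over all probe sets tested the medians of these arrays were -0.03, -0.06 and -0.14. On replicate 3 the list thus lay no lower than probe sets in general. The called one was Clu, the secreted chaperone clusterin, which fell from 1798, 1300 and 1430 to 826, 850 and 885, by 0.81 ± 0.15 (limma adjusted p = 0.0452), with its brighter probe set at -0.34 and not called. Nppa, the atrial natriuretic peptide, read 3439, 2960 and 2832 against 5955, 4028 and 6307 (0.80 ± 0.18, adjusted p = 0.0546). Acta1, skeletal alpha-actin, read 16992, 15394 and 16707 against 8299, 7753 and 14374 (-0.75 ± 0.22, adjusted p = 0.0801). Acta1 passed after quantile normalization (-1.19, adjusted p = 0.0163) and Nppa did not (0.64, adjusted p = 0.0608). Nppb, the B-type peptide, overlapped between the groups at -0.26 ± 0.21, and so did both probe sets of Myh7, the slow myosin heavy chain (0.24 ± 0.30 and -0.71 ± 0.32).

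Sarcomere genes of the cardiomyocyte, such as Tnnc1 (0.59 ± 0.17, adjusted p = 0.0788) and Myh6 (0.39 ± 0.13, adjusted p = 0.0983), had a median of 0.15 as deposited and -0.09 after quantile normalization, with 0 of 18 probe sets called. Their direction is thus unsettled, and Myh6 turned to -0.06 with that normalization. In calcium handling 0 of 15 were called. Ryr2, the release channel of the sarcoplasmic reticulum, read 7197, 6733 and 6909 against 4949, 5294 and 4066 (-0.55 ± 0.13, adjusted p = 0.0563). In IGF1R-caPI3K hearts Ryr2 read 4065, 4464 and 4292, and IGF1R-dnPI3K hearts differed from these by 0.15 ± 0.13 (limma adjusted p = 0.635). Atp2a2, the calcium pump, overlapped between IGF1R and IGF1R-dnPI3K hearts at -0.05 ± 0.11.

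Among 17 probe sets for cardiac ion channels, 2 were called lower and 0 higher. Kcnd2, a channel subunit of the transient outward potassium current, fell from 371, 276 and 282 to 95.6, 139 and 132, by 1.35 ± 0.23 on the log2 scale (limma adjusted p = 0.0431). That probe set has the suffix r, and the other probe set of Kcnd2 was too dim to be tested. Kcne1l, a regulatory potassium channel subunit, fell from 204, 127 and 169 to a signal at background (18.2, 33.2 and 41.4), so the size of its fall is open. Kcna5, which carries an ultrarapid potassium current, differed by 0.68 ± 0.15 (adjusted p = 0.0546). The list's median was 0.07 (0.05 after quantile normalization). The groups did not overlap in 2 higher (11.8%, against 13.8% over all probe sets tested) and 6 lower (35.3%, against 21%).

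A few genes of the mitochondrial respiratory chain rose in IGF1R-dnPI3K hearts. These lists are bright, with median signals of 9256 for complex I and 8203 for complexes II to V, and the brightest of the 10 signal bins had a median change of 0.21 as a whole. In complex I, 3 of 30 probe sets were called higher and 0 lower, and 19 higher (63.3%, against 13.8% over all probe sets tested) and 1 lower had no overlap between the groups. The median of 0.31 became 0.08 after quantile normalization. Ndufa5, an accessory subunit, read 10598, 10314 and 9295 against 16187, 16890 and 20259.8 (0.82 ± 0.13, limma adjusted p = 0.038). Ndufb7 rose by 0.86 ± 0.17 and Ndufb8 by 0.61 ± 0.12 (adjusted p = 0.0477 and 0.0499). After quantile normalization Ndufa5 (0.44) and Ndufb7 (0.51) still passed at smaller changes, and Ndufb8 (0.26, adjusted p = 0.124) did not.

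In complexes II to V, 3 of 44 probe sets were called higher and 1 lower, and the median of 0.29 became 0.06 after quantile normalization. The groups did not overlap in 21 higher (47.7%, against 13.8% over all probe sets tested) and 8 lower (18.2%, against 21%). The rises were those of Atp5e (1.01 ± 0.20), a small subunit of ATP synthase, Atpif1 (0.77 ± 0.15), its natural inhibitor, and Uqcrh (0.70 ± 0.14), a hinge protein of complex III. Atp5e read 5252, 5299 and 5197 against 8272, 9561 and 14958 (adjusted p = 0.0492), and after quantile normalization it passed at 0.73, while Atpif1 (0.58, adjusted p = 0.0598) and Uqcrh (0.34, adjusted p = 0.0678) did not. The called lower member was a dim probe set of Atp5l with a shared-target suffix (-1.21 ± 0.24), while the bright probe set of that gene differed by 0.79 (adjusted p = 0.0546), so the direction for Atp5l is unsettled.

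In the citric acid cycle 1 of 25 probe sets was called higher and 1 lower. Idh2, the mitochondrial isocitrate dehydrogenase that makes NADPH, rose from 10078, 8827 and 8481 to 14016, 16244 and 21912, by 0.91 ± 0.17 (limma adjusted p = 0.0458; 0.56 and adjusted p = 0.0327 after quantile normalization). The lower call was on a probe set of Sucla2 with the suffix r (-1.95 ± 0.38), and the gene's brighter probe set, at 7131 and 7634 in the 2 groups, differed by 0.10 and was not called. The list's median was 0.12 (0.08 after quantile normalization). The groups did not overlap in 11 higher (44%, against 13.8% over all probe sets tested) and 3 lower (12%, against 21%).

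Cytosolic ribosomal proteins had the highest median of all lists, 0.34, which became 0.08 after quantile normalization. By limma, 0 of 31 probe sets were called, and 17 higher against 3 lower had an unadjusted p under 0.05. Over all probe sets tested, 2138 of 7625 had such a p. Rpl6 differed by 0.71 ± 0.16 and Rps18 by 0.64 ± 0.14 (adjusted p = 0.0546 for both). Among 28 probe sets for translation factors, 1 was called higher and 0 lower: Eef1d, a subunit of the exchange factor that reloads elongation factor 1, read 1605, 1634 and 1598 against 2363, 2636 and 3196 (0.75 ± 0.14, adjusted p = 0.0452). In that list the groups did not overlap in 8 higher (28.6%, against 13.8% over all probe sets tested) and 8 lower (28.6%, against 21%).

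In the proteasome 2 of 41 probe sets were called higher and 0 lower, with a median of 0.11 (0.04 after quantile normalization). The groups did not overlap in 9 higher (21.95%, against 13.8% over all probe sets tested) and 6 lower (14.6%, against 21%). Psme1, a subunit of the activator that opens the proteasome for antigen peptides, rose from 1932, 1846 and 1716 to 3561, 3454 and 3924, by 0.99 ± 0.12 on the log2 scale (limma adjusted p = 0.0186; 0.92 after quantile normalization). The spread within each group was far smaller than the gap between them. Psmd4, the receptor of the proteasome for ubiquitin chains, rose from 1839, 1876 and 1688 to 2714, 3212 and 3848, by 0.84 ± 0.15 (adjusted p = 0.0452).

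No probe set of the 2 lists on lipid use was called. PPAR alpha is the nuclear receptor that turns on fat burning, and its responsive genes had a median of 0.28 (0.34 after quantile normalization) over 17 probe sets, with 0 called by limma and 5 higher against 0 lower at an unadjusted p under 0.05; over all probe sets tested 2138 of 7625 had such a p. Acot1, a thioesterase, read 216, 291 and 266 against 390, 1227 and 1134 (1.67 ± 0.39, adjusted p = 0.0546). Lipe, the hormone-sensitive lipase, read 313, 305 and 368 against 504, 883 and 1095 (1.26 ± 0.27, adjusted p = 0.0537), and Pnpla2, the lipase that starts triglyceride breakdown, differed by 1.04 ± 0.26 (adjusted p = 0.0597). In all 3 genes IGF1R-dnPI3K replicate 1 was the lowest of its group and still above every IGF1R mouse. Without it, Acot1 passed at 2.21 (limma adjusted p = 0.00382) and Lipe at 1.58 (adjusted p = 0.0061). The array left out was the least changed in these genes, and 1138 of 7449 probe sets passed in that setting, so these passes add no support. For fatty acid uptake and oxidation the median was 0.20 (0.08 after quantile normalization), with 0 of 29 probe sets called and 10 higher against 3 lower at an unadjusted p under 0.05.

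In the antioxidant list 1 of 39 probe sets was called higher, that of Txnrd3, and 1 lower, with a median of -0.03 (-0.02 after quantile normalization). The groups did not overlap in 13 higher (33.3%, against 13.8% over all probe sets tested) and 8 lower (20.5%, against 21%). Sod1, the superoxide dismutase of the cytosol, fell from 3541, 2990 and 2906 to 1789, 2042 and 2082, by 0.67 ± 0.13 on the log2 scale (limma adjusted p = 0.0492). Every IGF1R-dnPI3K mouse was well below every IGF1R mouse. The glutathione transferase gene Gstm2 differed by 0.61 ± 0.14 and 0.65 ± 0.15 on its 2 tested probe sets (adjusted p = 0.0546 and 0.0554), and Mt1, a metallothionein, by 1.38 ± 0.32 (adjusted p = 0.0546).

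**Figure D4:**
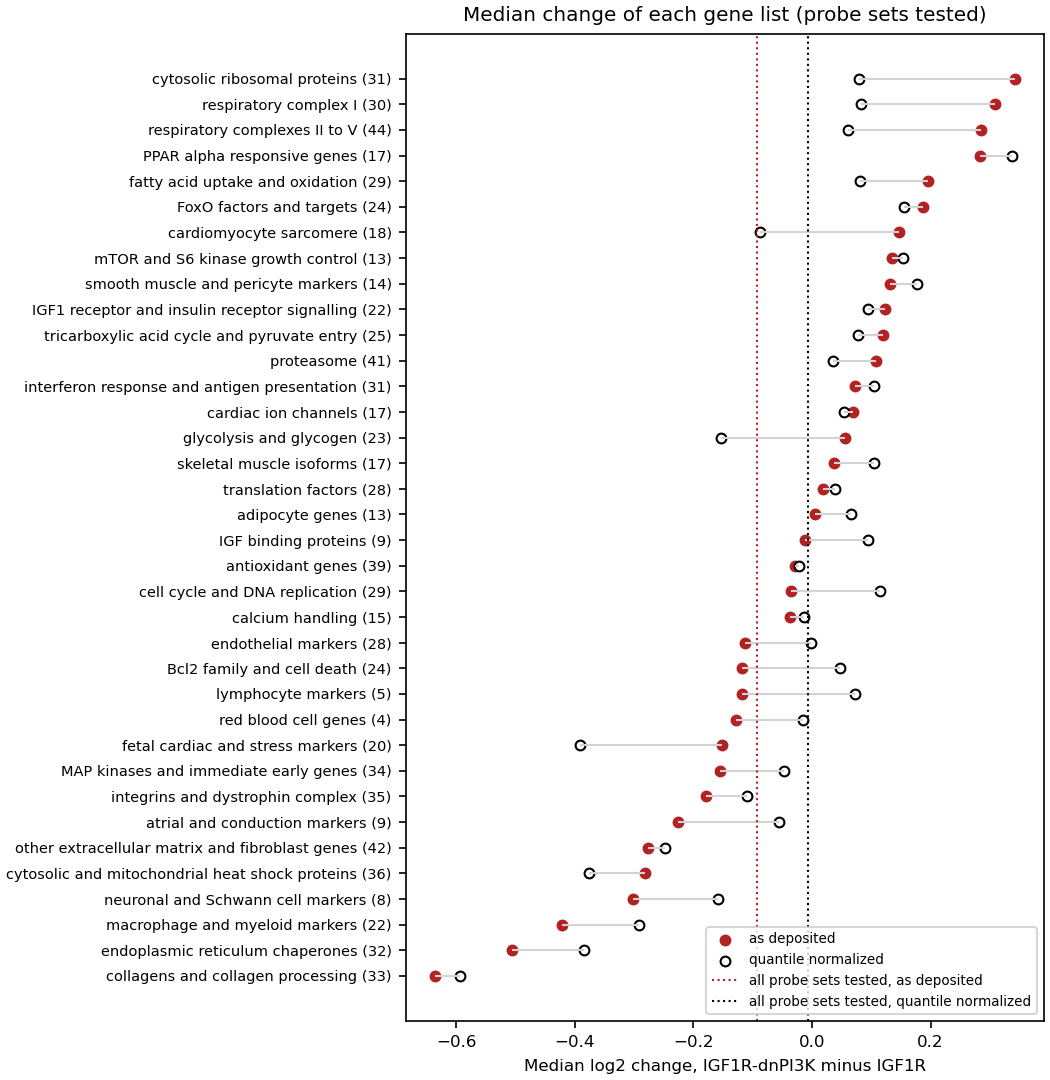
Median log2 change of each of 36 gene lists with tested members (rows, with the number of probe sets tested), as deposited (filled points) and after quantile normalization (open points); dotted lines are the medians over all probe sets tested. Collagens lie lowest at -0.64 and -0.59, while respiratory complex I moves from 0.31 to 0.08.

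The remaining large falls belonged to genes outside the lists. Fxr1, an RNA-binding protein of striated muscle, fell from 486, 521 and 419 to 138, 221 and 153, a log2 change of -1.503 ± 0.21 (limma adjusted p = 0.0325), and its other tested probe set differed by -0.28 without passing. Ell2, a transcription elongation factor, fell from 1234, 1044 and 1098 to 501, 438 and 359, by 1.39 ± 0.16 (adjusted p = 0.0186). Amot, which binds the growth regulator YAP, fell by 1.38 ± 0.21, the transcription factor gene Maz by 1.70 ± 0.33 and the receptor gene Ephb6 by 1.82 ± 0.34. The 3 genes had mean signals of 64.2 to 124 in IGF1R-dnPI3K hearts, close to background. A probe set of the histone variant gene Macroh2a1 with the suffix r was lower by -1.61 ± 0.27 on the log2 scale, while a brighter one differed by 0.15. Brighter probe sets of Sec23b (-0.01) and Ephb6 (0.08) were not called either, and the called probe sets of Sec23b and Map6 ended at background, at 25.03 ± 3.33 and 53.8 ± 29.3 (SD, n = 3).

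The 3 IGF1R-dnPI3K mice were not alike, and replicate 1 differed from the other 2 in several groups of genes. The mouse numbers in the titles are consecutive for replicates 2 and 3 and far from that of replicate 1; the labels do not say whether this marks a litter or a batch. Relative to the mean of the IGF1R mice, the median of the collagen list was -0.17 on the array of replicate 1 and -0.80 and -0.87 on those of replicates 2 and 3. The myeloid list showed -0.11 against -0.79 and -0.63, and fatty acid uptake and oxidation showed -0.17 against 0.43 and 0.28. Heat shock proteins (-0.25, -0.27 and -0.51), complex I (0.26, 0.35 and 0.42) and cytosolic ribosomal proteins (0.26, 0.28 and 0.50) had the same sign on all 3 arrays.

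Interferon response and antigen presentation genes separated the mice most. The list's median was 0.71 on the array of replicate 1 and -0.22 and -0.34 on the others. Of its 31 probe sets tested, 23 were above all 3 IGF1R arrays on replicate 1, against 4 and 5 on replicates 2 and 3; over all probe sets tested those shares were 30.2%, 29.4% and 30.1%. B2m, the light chain of class I molecules, read 3694, 5909 and 4766 in IGF1R hearts and 10184, 3433 and 1550 in IGF1R-dnPI3K hearts. H2-Aa, a class II chain, read 582, 673 and 528 against 1701, 509 and 462, and Cd74, the class II chaperone, 1724, 1585 and 1741 against 2994, 1157 and 1002. Neither class II gene passed between the groups (adjusted p = 0.66 and 0.803). In this list 1 probe set was called higher, that of Psme1, and 0 lower, with a median change of 0.07 (0.11 after quantile normalization). The differences between single mice have no replicate and were not tested.

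**Figure D5:**
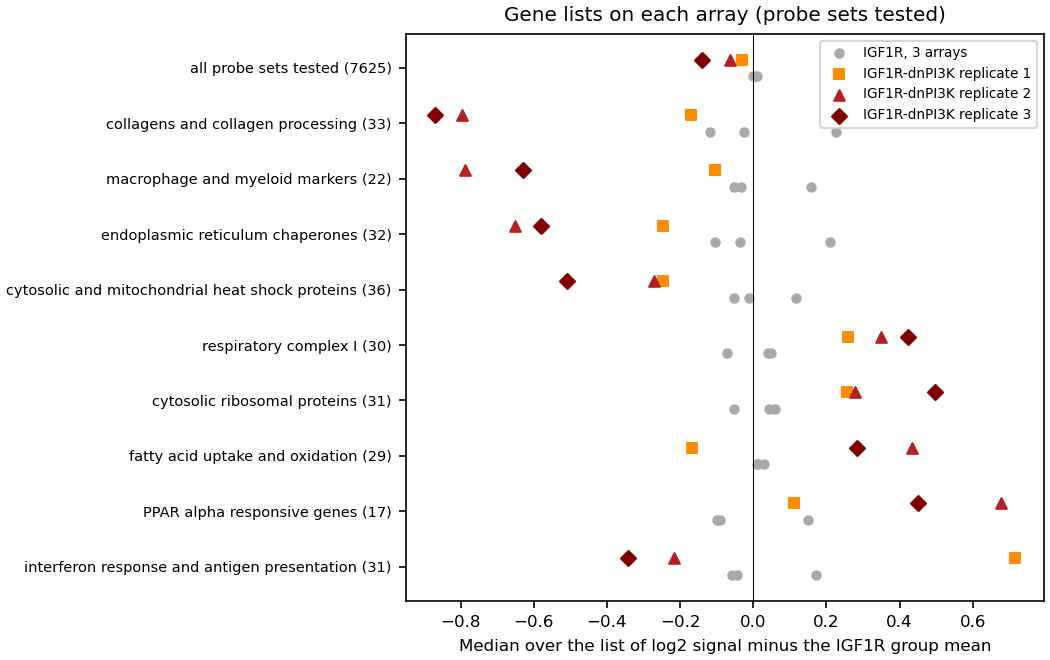
Median over each gene list of log2 signal minus the IGF1R group mean (horizontal axis) on each array, for 9 lists and for all probe sets tested, with the number of probe sets in brackets. IGF1R-dnPI3K replicate 1 (squares) lies at -0.17 for collagens, where the other 2 mice of its group lie at -0.80 and -0.87, and at 0.71 for interferon and antigen presentation genes, where they lie at -0.22 and -0.34.

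The 2 PI3K groups were also compared with each other. In a fit of the IGF1R-dnPI3K against the IGF1R-caPI3K arrays, 18 of 7590 probe sets (0.237%) had a limma adjusted p under 0.05. With 3 arrays a group, that count does not show that the 2 groups were alike. Myl1 read 10107, 10603 and 11898 in IGF1R-caPI3K hearts and was lower in IGF1R-dnPI3K hearts by -2.49 ± 0.21 on the log2 scale (adjusted p = 0.00415). Casq1, at 6875 ± 373 (SD, n = 3) in IGF1R-caPI3K hearts, was lower by -1.73 ± 0.21 (adjusted p = 0.0216), and Clu by -0.83 ± 0.11 (adjusted p = 0.0331). The probe sets of Tbc1d10a (3.08 ± 0.20, adjusted p = 0.0014), Ces1d (1.499 ± 0.19, adjusted p = 0.0308) and Arhgap9 (adjusted p = 0.0308) were higher in IGF1R-dnPI3K hearts. The Arhgap9 probe set read 17.0, 17.0 and 10.3 in IGF1R-caPI3K hearts, under the floor of 32.7, so the size of that difference is open. Serpinf1, a secreted inhibitor of vessel growth, and Tfpi, the inhibitor of tissue factor, were named after their values were seen. Serpinf1 fell from 758, 972 and 854 in IGF1R hearts to 373, 380 and 342 (-1.23 ± 0.15, adjusted p = 0.0186) and was lower than in IGF1R-caPI3K hearts by -1.43 (adjusted p = 0.00636), although its other probe set differed by 0.46 from IGF1R hearts. Tfpi rose from 643, 591 and 741 to 1274, 1375 and 1277 (0.997 ± 0.14, adjusted p = 0.0325) and was 1.40 higher on the log2 scale than in IGF1R-caPI3K hearts (adjusted p = 0.00671).

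Other called genes were not told apart from IGF1R-caPI3K hearts. Igf1r was 0.65 ± 0.15 higher on the log2 scale than at its level of 1138 ± 182 (SD, n = 3) there (limma adjusted p = 0.148), and Itga5 was -1.51 ± 0.27 lower (adjusted p = 0.0717). Sod1, at 2041 ± 224 there, differed by -0.05 ± 0.13 (adjusted p = 0.9), Fxr1 by -0.33 (adjusted p = 0.603) and Kcnd2 by -0.38 ± 0.27 (adjusted p = 0.587). Rps6kb2, at 275 ± 34.5 there, differed by 0.51 (adjusted p = 0.359), and Txnrd3, at 1045 ± 353, by -0.49 (adjusted p = 0.422). The differences were -0.50 for Rasa1, 0.40 for Nup188, -0.28 for Sucla2, 0.28 for Znrf1 and -0.20 for Lamb1 (adjusted p = 0.453, 0.598, 0.814, 0.48 and 0.693). A p above the threshold with 3 mice a group does not show that the levels were alike. Both comparisons use the same IGF1R-dnPI3K arrays.

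Lists with no called member by limma, beside those above, were IGF binding proteins, glycolysis, cell cycle, MAP kinases and immediate early genes, the Bcl2 family, and atrial, endothelial, smooth muscle, lymphocyte, red blood cell and nerve markers. Their medians ran from -0.30 for the nerve markers to 0.13 for smooth muscle, and from -0.16 to 0.18 after quantile normalization. At an unadjusted p under 0.05 their 187 entries were higher in 23 cases and lower in 27, where 2138 of all 7625 probe sets tested had such a p. The adipocyte list had 1 of 13 called, the Scd1 probe set. Kdr, the main receptor of endothelial cells for vascular growth factor, read 1157, 1307 and 1459 against 878, 582 and 383 (-1.16 ± 0.27, limma adjusted p = 0.0546), with an IGF1R-caPI3K mean of 702. Vwf, of the same endothelial list, went the other way, from 495, 566 and 502 to 784, 660 and 1002 (0.63 ± 0.18, adjusted p = 0.0757). In that list 4 probe sets were higher and 5 lower at an unadjusted p under 0.05, and the median was -0.11 (-0.002 after quantile normalization).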

How the data were processed

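Ventricular RNA of 9 female mice was measured on 1 Affymetrix-type array each, and groups came from the titles. The deposited table holds 1 linear intensity per probe set and array. From the values, the authors had scaled every array to the same 2% trimmed mean. Which algorithm and genome build were used, and any detection calls, are not stated in the labels or the table. GEO's platform annotation gave 1 gene symbol for 10833 probe sets, several for 396 and none for 1193, and 10817 matched RefSeq genes.

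Intensities under 32.7 (the 20th percentile over the 6 arrays) were set to that floor before log2 was taken. A probe set was tested if it exceeded the array's 40th percentile on at least 3 of 6 arrays, and 0.225% of the values tested lay at the floor. limma 3.58.1 (R 4.3.3) was fitted to the 6 arrays with variances that follow the mean signal, and p-values were adjusted by Benjamini-Hochberg over all 7625 probe sets with a threshold of 0.05. They measure the spread between these samples. The same steps compared IGF1R-dnPI3K with IGF1R-caPI3K arrays. Of the 7625, 109 passed the filter through 1 group only. The called probe sets of Gadd45b, Arhgap9, Upp1, Nup188, Slc19a1, Kcne1l, Sec23b, Map6, Maz and Ephb6 and the probe set of Irs2 were among them. For these, a lack of overlap between the groups was largely fixed by the filter. The fit was tested on simulated data.

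The text names up to 15 called probe sets in each direction with the largest change and no overlap, up to 4 called or otherwise up to 2 further members of each of 37 gene lists, and a fixed set of pathway and cardiac genes, with a few more members of the lists as examples; some genes that the rule names are left out. The comparison, the gene lists and the rule were chosen with earlier results of these data known. Replicate numbers follow the order of deposit and pair nothing. Other settings, 18 in all, were tried for the normalization, low values, filter, variance model, array weights, shared-target probe sets and arrays, and 1 more was added after seeing the data. The setting for shared-target probe sets left out all names with the suffix f, g, i, r or s, though not each of these marks a shared target. Of the 137 called probe sets 42 had such a name, among them those of Ptgds, Clu and Ndufa5. Promoter windows came from RefSeq (GRCm38.p6).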

Additional observations from a re-analysis of the deposited data

Results flagged for a closer look

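The 3' to 5' signal ratio of the CreX control stood out in data outside the gene comparison: its mean on the IGF1R-dnPI3K arrays was 1.81 ± 0.02 (SD, n = 3), against 1.18 ± 0.11 on the IGF1R arrays and 1.80 ± 0.08 on the IGF1R-caPI3K arrays. For Gapdh, read from the sample's own RNA, the same ratio lay between 0.747 and 0.818 in the IGF1R group but between 0.844 and 0.943 in the IGF1R-dnPI3K group. For pyruvate carboxylase it lay between 1.4 and 1.71 against 1.79 and 3.25, with 3.25 on IGF1R-dnPI3K replicate 3, the array least like the others. For beta-actin the groups overlapped, at 1.04 to 1.24 against 1.09 to 1.15. The part of these ratios in the differences between the groups was not tested.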

How the results depend on the processing

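The count of 137 called probe sets became 326 (165 higher, 161 lower) after quantile normalization, 291 with a floor at the 40th percentile, 392 with probe sets above the 40th percentile on all 6 arrays, 1257 with array weights and 1066 with all 9 arrays sharing 1 estimate of spread. It became 2 with no filter (0 of them shared with the 137, and 2279 with an unadjusted p under 0.05), 17 with no trend in the variance and 77 of 5880 without shared-target probe sets. It ran from 1 to 1138 with single arrays left out. Scaling to a common median gave 177, of which 76.8% were higher, against 53.3% as deposited. The other settings gave 110 to 147.

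Each called probe set passed in 6 to 17 alternatives, with a median of 11, and none of the 137 changed sign in any of the 19 in which it was tested. With single arrays left out a change of sign was not possible, because the groups did not overlap in any of the 137. Over 1954 values of 108 named probe sets under the alternatives, 320 fell below the threshold, 204 passed it newly and 9 changed sign. The sign changes were those of Hba-a1 (-0.0035 after quantile normalization without IGF1R-dnPI3K replicate 3), Hbb-b2 (0.045 with a common median), Myh6 (-0.060 after quantile normalization, -0.0049 without replicate 3 as well), Pik3ca (0.078 after quantile normalization without replicate 3), Myh7 (-0.20 after quantile normalization, -0.37 with replicate 3 left out as well, and -0.14 to 0.57 with single arrays left out) and Atp2a2 (0.12 with a common median). None of these passed as deposited, and the cause was not tested. Of 684 list medians under the alternatives, 92 moved by more than the spread between mice. No paired analysis was possible because the titles carry mouse numbers and no replicate numbers shared between groups. The comparison with IGF1R-caPI3K arrays was not rerun under other settings.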
